A study of Mus musculus with 74 samples.

Results

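The E14 hindstomach epithelium was compared with the libraries labelled E12 hindstomach, 2 RNA libraries against 2, of the 74 samples in the series. The hindstomach is the glandular part of the mouse stomach. Membership followed the sample labels alone. All 4 members came from CD1 wild-type mice without treatment, and were epithelial cells freed with trypsin and sorted for the surface protein Epcam, so that embryonic day (E) 12 or 14 was the only labelled difference. The forestomach, whose lining becomes squamous, and the small intestine, which the labels also call midgut, served for comparison with 2 libraries at each stage, from the same strain and sort. The labels name no embryo, litter or pool behind a library, so the p-values measure only spread between libraries. That spread was estimated jointly over all embryonic RNA libraries of the series. These include later stages and small intestine with Cdx2 deleted (Cdx2-/-). In such bulk samples, fewer cells of a type and less RNA per cell cannot be told apart.

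The early stomach and intestine form from a simple endodermal tube, whose regions become distinct through transcription factors. Sox2 is known from the prospective stomach, Gata4 from the glandular stomach and the upper intestine, and Cdx2 from the intestine. Hox genes lie in clusters, and their paralog number follows position along the body axis, with the highest numbers used nearest the tail. Gland and mucus genes of the stomach come on later in gestation, and endocrine cells of the gut arise through the factor Neurog3.

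The libraries labelled E12 hindstomach went against that label, and this bears on every value that follows. Gata4, a zinc-finger factor of the glandular stomach, was at 0.369 and 0.569 CPM (read counts scaled to library size) in them, against 358 and 338 CPM in E14 hindstomach. It was at 277 and 273 CPM in E12 forestomach and at 195 and 145 CPM in E12 small intestine, so that every other group shown was far above the libraries labelled E12 hindstomach. Nkx6-3, a homeobox gene of the distal stomach, was at 0.0615 and 0 CPM in those libraries, at 40.7 and 47.9 CPM in E12 forestomach and at 54.5 and 55.2 CPM in E14 hindstomach. E14 forestomach held 0 and 0 CPM of Nkx6-3. Pdx1, of pancreas, antrum and duodenum, was at 27.5 and 24.6 CPM in E12 forestomach and 1.67 and 3.69 CPM in E14 forestomach. Whether the E12 forestomach libraries hold forestomach alone was not tested. Epcam, the epithelial protein used for the sort, was present at 726 and 888 CPM at E12 and at 752 and 737 CPM at E14, and did not pass the test. The 9 genes that define epithelium in the marker lists, Epcam among them, summed to 0.421% and 0.477% of counts at E12 and 0.624% and 0.637% at E14. Besides Gata4, which was called, the cadherin Cdh1 (log2 fold change 0.97, edgeR adjusted p = 9.63e-06) and the keratins Krt8 (0.85, 0.00685) and Krt18 (0.62, 0.00701) were higher at E14 with a fold under the minimum, and Cdh1 was called without E12 replicate 2 (1.06, 0.000113). Hox genes of paralog groups 9 to 13 summed to 435 and 464 CPM in the libraries labelled E12 hindstomach. That sum was at most 2.06 CPM in each of the other 16 wild-type forestomach, hindstomach and small intestine libraries at E12, E14 and E16. Across genes, as a description, Spearman's rho of the E14 hindstomach libraries was 0.953 to 0.956 with E12 forestomach, 0.895 to 0.928 with E12 small intestine and 0.915 to 0.919 with the libraries labelled E12 hindstomach. The latter had a rho of 0.948 to 0.949 with E12 forestomach and of 0.923 to 0.954 with E12 small intestine. The 2 E12 small intestine libraries were uneven. Replicate 1 had no count for 28 of 44 gastric differentiation and 9 of 35 intestinal epithelial genes, and replicate 2 for 15 and 3. A change with stage and a difference in the tissue taken cannot be told apart here, and no count can be given without the doubted libraries because they are the whole E12 group.

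Over all genes, 2971 of 17239 tested (17.2%) were called, 1858 higher at E14 (10.8%) and 1113 lower (6.46%). A gene was called where edgeR's quasi-likelihood test gave a Benjamini-Hochberg adjusted p below 0.05 and the log2 fold change was at least 1 in size. Total counts were 25253067 and 26745220 at E12 and 21910062 and 20449108 at E14. Log2 fold changes are E14 over E12 and carry their standard error (SE). A gene with no count in either library of a group, as were 387 of the called genes, is given as a bound against 3 counts in each library of that group, and a gene with 1 to 3 counts in a group as a ratio of levels. Bounds and intervals cover counting error only and leave out the spread between libraries. Copies of 1 molecule made by PCR are counted as separate reads, so the counting error can be larger than given. The libraries of the 2 stages did not overlap in 99.3% of the called genes (all but 21), so that a lack of overlap is not particular to any gene named. Without E14 replicate 1 the count of lower genes was 667, and without E14 replicate 2 it was 668.

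The Hox genes were mostly lower at E14. Of 39 in the table, 35 were tested, 25 fell and 2 rose, beside 6.46% and 10.8% of all genes. The 12 tested genes of paralog groups 9 to 13 all fell, and 10 of them had no count in either E14 library. Low in the other wild-type libraries, such genes could pass the filter on low counts mainly through the libraries labelled E12 hindstomach. That all 12 fell therefore adds no support of its own. Hoxa10 was at 104 and 120.1 CPM at E12 and had no count at E14, at least 1030-fold lower (edgeR adjusted p = 5.92e-07). Hoxb13, of the group used nearest the tail, was at 150.3 and 159 CPM at E12 and at 0.0353 and 0 CPM at E14 (a ratio of 8490 with an exact 95% interval of 1520 to 335000, edgeR adjusted p = 4.42e-06). Hoxa9 was at 52.2 and 41.9 CPM at E12 and had no count at E14, at least 430-fold lower (edgeR adjusted p = 4.97e-05). In E12 small intestine Hoxa10 was at 0.0338 and 0.0319 CPM, Hoxb13 at 0.135 and 0.0319 CPM and Hoxa9 at 0.0676 and 0.605 CPM. Hoxd13 was at 29.6 and 32.4 CPM at E12 and had no count at E14, at least 283-fold lower (edgeR adjusted p = 0.00011). Hoxd11 was at 31.9 and 36.3 CPM at E12 and at 0 and 0.0376 CPM at E14 (a ratio of 1870 with an exact 95% interval of 336 to 74100, edgeR adjusted p = 0.000162). DESeq2 called 18 Hox genes lower, counting only genes to which it gave an adjusted p, and did not call Hoxa13 or Hoxd10 (adjusted p = 0.284 and 0.245), and edgeR lost Hoxa13 without E14 replicate 1 (adjusted p = 0.0586) and without E14 replicate 2 (0.0548). The median log2 fold change of the tested Hox genes was -8.53 as fitted and -4.71 with genes at 0 in one group set to their bound, beside 0 over all genes.

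Hox genes of lower number were less uniform. In paralog groups 1 to 4, 5 of 12 fell and 1 rose, and in groups 5 to 8, 8 of 11 fell and 1 rose. Hoxa7 was at 18 and 15.8 CPM at E12 and had no count at E14, at least 155-fold lower (edgeR adjusted p = 7.6e-05). Hoxa5, which is known from the lung and stomach region, was at 9.94 and 9.25 CPM at E12 and at 0.776 and 1.62 CPM at E14 (a log2 fold change of -3.0 with SE 0.54 and an edgeR adjusted p = 0.000322). In E16 hindstomach Hoxa5 was at 15.6 and 15.9 CPM, above both earlier groups. Mesenchyme and muscle marker genes summed to 0.971% and 1.02% of counts in E16 hindstomach, against 0.0179% and 0.0194% in E14 hindstomach. Their part in this and the other E16 levels given was not tested. Hoxc4 rose from 0.554 and 0.389 CPM to 9.0 and 6.2 CPM (a log2 fold change of 4.0 with SE 0.45 and an edgeR adjusted p = 4.56e-06), and was at 23.7 and 20 CPM in E12 forestomach. Hoxc5 was called higher, at 0.954 and 0 CPM at E12 and 3.81 and 4.25 CPM at E14, but DESeq2 did not call it (adjusted p = 0.0879). The edgeR call of Hoxc5 was also lost without E12 replicate 2 (adjusted p = 0.104), E14 replicate 1 (0.0505) or E14 replicate 2 (0.0608).

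**Figure D1:**
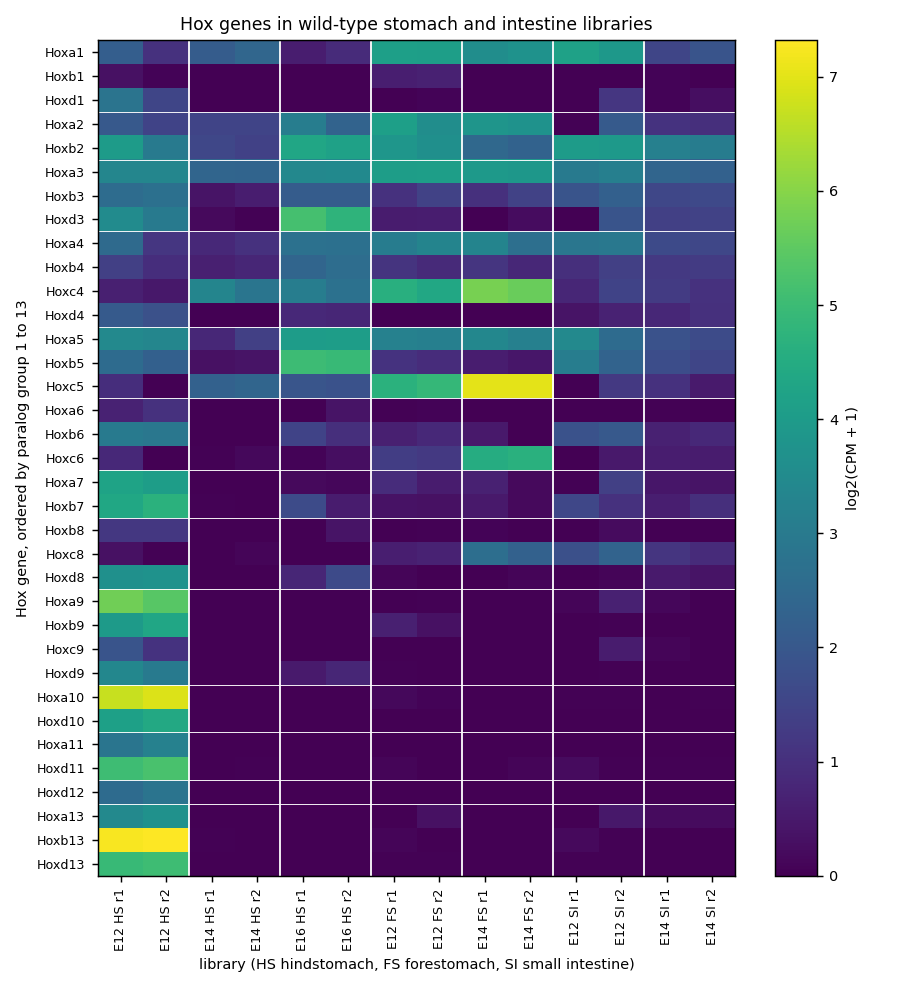
Level of the 35 tested Hox genes (rows, ordered by paralog group 1 to 13) in 14 wild-type libraries (columns; HS hindstomach, FS forestomach, SI small intestine), as log2(CPM + 1) on a colour scale. The genes of groups 9 to 13 are bright in the libraries labelled E12 hindstomach and dark in E14 hindstomach. All 16 genes of these groups, untested ones included, summed to 435 and 464 CPM in the former and 0.0353 and 0.0376 CPM in the latter.

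Factors known from the patterning and lineages of the stomach were more often higher at E14 than lower. Of 29 tested, 15 rose and 2 fell, beside 10.8% and 6.46% of all genes, and the median log2 fold change was 1.28. The rise of Gata4 was the largest of these with a fitted value (a log2 fold change of 9.52 with SE 0.33 and an edgeR adjusted p = 3.45e-13). Nkx6-3 gave a ratio of 1810 with an exact 95% interval of 500 to 14900, edgeR adjusted p = 2.41e-06. Sox2, the SRY-box factor of the prospective stomach, was at 20.6 and 9.07 CPM at E12 and at 92.3 and 68.2 CPM at E14 (a log2 fold change of 2.44 with SE 0.44 and an edgeR adjusted p = 0.000442). The E14 hindstomach libraries and those labelled E12 hindstomach all lay below E12 forestomach, where Sox2 was at 185 and 160.2 CPM. Its relative Sox21 was at 4.25 and 3.41 CPM at E12 and at 123 and 141 CPM at E14 (log2 fold change 5.10, SE 0.52), against 119 and 132 CPM in E12 forestomach.

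Other regional factors rose as well. Pitx1, a paired-like homeobox factor, rose from 16.6 and 10.5 CPM to 115 and 70.8 CPM (log2 fold change 2.78, SE 0.26). Foxq1, a forkhead factor known from gastric surface mucous cells, rose from 4.25 and 4.04 CPM to 99.3 and 108 CPM (log2 fold change 4.64, SE 0.23), and was at 511 and 487 CPM at E16. Esrrg, an orphan nuclear receptor, rose from 6.21 and 9.19 CPM to 78.3 and 76.9 CPM (log2 fold change 3.33, SE 0.23). In each of these genes both E14 hindstomach libraries lay above both libraries labelled E12 hindstomach. E14 forestomach held 620 and 476 CPM of Pitx1, 292 and 325 CPM of Foxq1 and 53.27 and 55.05 CPM of Esrrg. The endodermal pioneer factor Foxa1 did not pass the test, at 499 and 473 CPM at E12 and 367 and 423 CPM at E14. Gata6, a relative of Gata4, was at 87.1 and 81.9 CPM at E12 and 81.6 and 95.2 CPM at E14, with overlapping groups. The members that fell were Id2, an inhibitor of basic helix-loop-helix factors, and Osr2, an odd-skipped zinc-finger gene. Osr2 was at 91.6 and 97.3 CPM at E12 and at 0.106 and 0.301 CPM at E14 (a log2 fold change of -8.84 with SE 0.85 and an edgeR adjusted p = 4.74e-07), while E12 small intestine held 152 and 114 CPM and E12 forestomach 1.34 and 0.388 CPM.

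**Figure D2:**
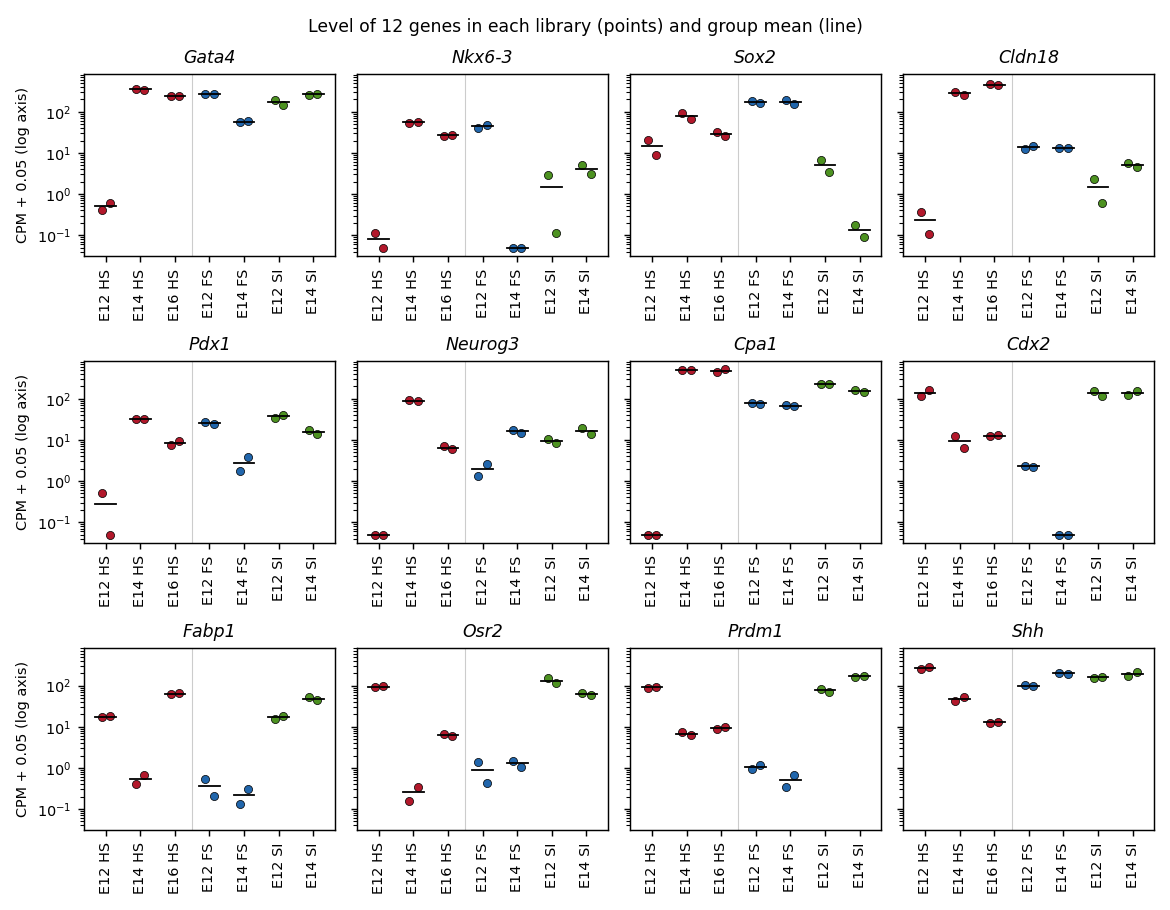
Level of 12 genes on a log axis of CPM + 0.05, with a point for each library and a line at the mean of each group of 2 (HS hindstomach in red, FS forestomach in blue, SI small intestine in green). Gata4, Nkx6-3, Cldn18, Pdx1, Neurog3 and Cpa1 lie near the bottom in the libraries labelled E12 hindstomach and high in E14 hindstomach, while Cdx2, Fabp1, Osr2, Prdm1 and Shh lie lower at E14.

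Intestinal transcription factors moved in both directions. Of 18 tested, 5 rose and 5 fell, beside 10.8% and 6.46% of all genes, with a median log2 fold change of 0.08. Cdx2, the homeodomain factor of the intestinal epithelium, was at 116 and 160.2 CPM in the libraries labelled E12 hindstomach and at 12.7 and 6.2 CPM in E14 hindstomach (a log2 fold change of -3.87 with SE 0.32 and an edgeR adjusted p = 8.04e-08). In small intestine it was at 153 and 115 CPM at E12 and at 123 and 152 CPM at E14. In forestomach it was at 2.33 and 2.15 CPM at E12 and had no count at E14, and in E16 hindstomach it was at 12.1 and 13.1 CPM. The Cdx2 level of the libraries labelled E12 hindstomach thus overlapped that of small intestine and lay above the other stomach libraries given here.

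Prdm1, the repressor Blimp1 of the fetal intestine, was at 89 and 94.8 CPM at E12 and at 7.3 and 6.13 CPM at E14 (log2 fold change -3.77, SE 0.25), and E12 small intestine held 82.2 and 71.6 CPM. Nr1h4 and Maf also fell. Hnf4a, a nuclear receptor of gut and liver epithelium, rose from 22.4 and 42.2 CPM to 118 and 117 CPM (log2 fold change 1.86, SE 0.35). Elf3, an ETS factor of simple epithelia, rose from 40.6 and 37.2 CPM to 176 and 164 CPM (log2 fold change 2.13, SE 0.27). Gata5, another factor of the gut GATA family, rose from 6.64 and 5.6 CPM to 21.4 and 25.7 CPM (log2 fold change 1.94, SE 0.28), and Hnf4g also rose. Isx, an intestinal homeobox gene, did not pass the test, at 20 and 23.2 CPM at E12 and 11.7 and 12.5 CPM at E14.

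Among 35 intestinal epithelial genes 8 rose and 6 fell, beside 10.8% and 6.46% of all genes. The list summed to 0.0522% and 0.0547% of counts at E12 and 0.0525% and 0.051% at E14. Fabp1, a fatty acid binding protein of enterocytes, was at 17.3 and 18.1 CPM at E12 and at 0.353 and 0.639 CPM at E14 (a log2 fold change of -5.15 with SE 0.60 and an edgeR adjusted p = 3.09e-06). Apob, the protein backbone of lipoproteins, was at 33 and 18.2 CPM at E12 and at 2.15 and 1.47 CPM at E14 (log2 fold change -3.81, SE 0.41). In E12 small intestine Fabp1 was at 15.8 and 18.5 CPM and Apob at 52.4 and 82.4 CPM. Lgr5, a Wnt co-receptor that marks gut stem cells, rose from 4.09 and 3.08 CPM to 20.7 and 21 CPM (log2 fold change 2.54, SE 0.34). Anpep, a brush border peptidase, rose from 8.0 and 10.4 CPM to 52.5 and 50.5 CPM (log2 fold change 2.49, SE 0.34). Dpp4, another brush border peptidase, fell from 123 and 139 CPM to 63.7 and 60 CPM, and its call was lost without E12 replicate 2 or E14 replicate 2 (edgeR adjusted p = 0.0459 at a fold below the minimum, and 0.0584). The microvillus gene Vil1 and the intestinal cadherin Cdh17 were not called, but a fit of the compared libraries alone called Cdh17 higher (log2 fold change 1.18, edgeR adjusted p = 0.00283).

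Promoter windows of 300 bases (250 before the start and 50 after it, RefSeq, GRCm38.p6) are shown for 4 intestinal genes that fell and 2 gastric genes that rose, as examples of both directions. Capitals mark matches on either strand to 1 of the 3 motifs reported. The motif searched for CDX factors was TTTATNG. For the family of Gata4 the letters searched were AGATAAG. The forkhead factors were searched by the letters TGTTTAC.
Fabp1, chr6:71199629-71199928, plus strand: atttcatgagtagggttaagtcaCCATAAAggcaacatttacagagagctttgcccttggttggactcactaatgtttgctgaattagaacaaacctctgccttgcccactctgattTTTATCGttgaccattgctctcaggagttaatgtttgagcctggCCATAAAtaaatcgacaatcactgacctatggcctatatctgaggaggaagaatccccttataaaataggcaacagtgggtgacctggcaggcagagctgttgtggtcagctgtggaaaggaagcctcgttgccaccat
Cdx2, chr5:147307200-147307499, minus strand: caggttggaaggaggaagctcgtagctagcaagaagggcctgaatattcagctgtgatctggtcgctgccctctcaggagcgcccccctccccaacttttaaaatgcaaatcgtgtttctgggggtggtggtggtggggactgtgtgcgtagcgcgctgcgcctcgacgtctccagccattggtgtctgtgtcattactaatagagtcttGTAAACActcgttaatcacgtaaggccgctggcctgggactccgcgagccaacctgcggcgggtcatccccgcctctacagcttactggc
Apob, chr12:7977427-7977726, plus strand: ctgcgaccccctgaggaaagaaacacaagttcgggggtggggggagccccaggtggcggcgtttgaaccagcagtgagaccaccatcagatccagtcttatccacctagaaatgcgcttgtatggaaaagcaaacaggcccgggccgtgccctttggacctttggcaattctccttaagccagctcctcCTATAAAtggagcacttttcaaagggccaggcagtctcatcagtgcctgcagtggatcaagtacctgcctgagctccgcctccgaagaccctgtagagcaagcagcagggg
Prdm1, chr10:44458699-44458998, minus strand: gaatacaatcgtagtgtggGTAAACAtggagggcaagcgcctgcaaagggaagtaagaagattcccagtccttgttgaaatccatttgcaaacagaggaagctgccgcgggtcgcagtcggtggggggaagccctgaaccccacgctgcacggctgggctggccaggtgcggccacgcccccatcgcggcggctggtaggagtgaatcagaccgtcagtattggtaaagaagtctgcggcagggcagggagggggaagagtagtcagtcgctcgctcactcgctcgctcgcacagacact
Anxa10, chr8:62123144-62123443, minus strand: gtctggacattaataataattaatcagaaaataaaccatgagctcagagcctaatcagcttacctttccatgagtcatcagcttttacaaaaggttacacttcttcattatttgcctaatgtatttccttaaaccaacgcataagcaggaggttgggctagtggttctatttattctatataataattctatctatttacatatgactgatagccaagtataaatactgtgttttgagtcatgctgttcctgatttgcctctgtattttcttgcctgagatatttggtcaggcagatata
Pgc, chr17:47726592-47726891, plus strand: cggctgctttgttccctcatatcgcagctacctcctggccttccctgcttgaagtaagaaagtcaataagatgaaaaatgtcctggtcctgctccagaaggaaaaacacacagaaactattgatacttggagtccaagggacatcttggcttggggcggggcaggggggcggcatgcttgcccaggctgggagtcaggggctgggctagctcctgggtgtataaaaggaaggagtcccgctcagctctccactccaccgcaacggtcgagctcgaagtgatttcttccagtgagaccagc
The Fabp1 window held 3 CDX matches, the Apob window 1 CDX match and the Cdx2 and Prdm1 windows 1 forkhead match each, and the Anxa10 and Pgc windows held none. Windows were matched by symbol for 12705 of the 17239 genes tested, 1363 of them higher and 795 lower at E14. The CDX letters stood in 8.05% of the lower, 7.56% of the higher and 7.72% of all these windows, so the windows shown do not stand for the called genes at large. The GATA letters stood in 1.89%, 2.27% and 2.06%, and the forkhead letters in 3.9%, 2.71% and 2.62%. A match is a run of letters, not a measured binding site.

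The gastric epithelial differentiation genes were mostly higher at E14. Of 47 listed, 44 were in the table and 43 were tested, of which 34 rose and 0 fell, beside 10.8% and 6.46% of all genes. At an unadjusted p below 0.05 edgeR found 0 members lower, and DESeq2 called 1 lower. The tested members not called by edgeR were Gkn1, Gkn2, Atp4a, Chia1, Psca, Aqp5, Fut2, Fut9 and B4galnt3, and Tff1 was too low to test. The median log2 fold change was 4.90 as fitted and 3.64 with bounds. The list summed to 0.0103% and 0.00958% of counts at E12 and 0.146% and 0.143% at E14, and to 0.0291% and 0.030% in E12 forestomach. In 28 of the 34 both E14 libraries lay above all 4 E12 forestomach and small intestine libraries, beside 1448 of all 1858 higher genes (77.9%).

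Cldn18, the claudin of stomach tight junctions, was at 0.308 and 0.0599 CPM at E12 and at 300.3 and 262 CPM at E14 (a log2 fold change of 10.55 with SE 0.49 and an edgeR adjusted p = 6.15e-11), and at 12.5 and 15.1 CPM in E12 forestomach. Anxa10, an annexin of the gastric epithelium, had no count at E12 and was at 38.2 and 40.5 CPM at E14, at least 432-fold higher (edgeR adjusted p = 1.38e-09). Muc5ac, the surface mucin of the stomach, had no count at E12 and was at 27.1 and 24.3 CPM at E14, at least 282-fold higher (edgeR adjusted p = 2.06e-07). All of them were at or near 0 in the libraries labelled E12 hindstomach. Muc1, a membrane mucin, was at 8.06 and 7.09 CPM at E12 and at 134 and 137 CPM at E14 (log2 fold change 4.16, SE 0.27). Ctse, the protease cathepsin E of the stomach lining, was at 1.63 and 0.569 CPM at E12 and at 50.9 and 51.2 CPM at E14 (log2 fold change 5.54, SE 0.53).

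Genes of chief and parietal cells, which make pepsinogens and acid, were still low at E14. Pgc, a pepsinogen gene, had no count at E12 and was at 5.89 and 7.75 CPM at E14, at least 74.9-fold higher (edgeR adjusted p = 1.44e-07), and it was at 247 and 217 CPM at E16. Atp4b, the beta subunit of the proton pump, was at 0.185 and 0 CPM at E12, at 7.87 and 8.05 CPM at E14 and at 282 and 326 CPM at E16 (log2 fold change 6.37, SE 0.67 from E12 to E14). Atp4a, its catalytic partner, was at 0.277 and 1.76 CPM at E12 and 2.29 and 2.63 CPM at E14 and did not pass the test, but was called higher without E12 replicate 2 (log2 fold change 3.13 in place of 1.26, edgeR adjusted p = 0.0275). Cym, the milk-clotting protease chymosin, stood apart from these genes in level, at 0.246 and 0 CPM at E12 and 1063 and 1130 CPM at E14 (a log2 fold change of 13.08 with SE 0.51 and an edgeR adjusted p = 2.53e-12). E12 forestomach held 143 and 142 CPM of Cym and E14 forestomach 1270 and 1254 CPM. E14 forestomach also held 9.84 and 12.1 CPM of Atp4b, so that both genes were higher there than in E14 hindstomach.

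Genes of mucin glycosylation and of the secretory machinery were also mostly in 1 direction. Of 46 tested, 23 rose and 1 fell, B3gnt7, beside 10.8% and 6.46% of all genes. The median log2 fold change was 1.26. Agr2, a protein disulfide isomerase of mucous cells, rose from 2.77 and 1.92 CPM to 117 and 125 CPM (a log2 fold change of 5.69 with SE 0.78 and an edgeR adjusted p = 2.03e-05). Ern2, an endoplasmic reticulum stress sensor of mucous epithelia, rose from 0 and 0.359 CPM to 33.5 and 32.3 CPM (log2 fold change 7.46, SE 0.55). Spdef, an ETS factor of mucous cells, rose from 3.14 and 4.4 CPM to 32.6 and 32.3 CPM (log2 fold change 3.10, SE 0.41). Hspa5, Hsp90b1 and Sec61b, general genes of protein folding and translocation in the list, were not called. Galnt6, which starts mucin-type sugar chains, rose from 2.25 and 1.71 CPM to 23.3 and 23.9 CPM (log2 fold change 3.58, SE 0.39). Gcnt3, which branches them, rose from 1.26 and 0 CPM to 40.7 and 41.1 CPM.

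Many endocrine genes were at or near 0 in the libraries labelled E12 hindstomach and present at E14. Of 43 enteroendocrine genes tested, 28 rose and 2 fell, beside 10.8% and 6.46% of all genes. Their median log2 fold change was 5.14 as fitted and 4.61 with bounds. Neurog3, the factor that commits cells to the endocrine fate, had no count at E12 and was at 91 and 88.7 CPM at E14, at least 987-fold higher (edgeR adjusted p = 4.22e-08). E12 forestomach held 1.3 and 2.59 CPM of Neurog3 and E12 small intestine 10.6 and 8.54 CPM. Neurod1, a factor downstream of it, had no count at E12 and was at 40.8 and 40.6 CPM at E14, at least 447-fold higher. Nkx2-2, a homeobox factor of endocrine cells, had no count at E12 and was at 38.7 and 40.2 CPM at E14, at least 434-fold higher. Insm1, a zinc-finger factor of endocrine precursors, rose from 0.40 and 0.0599 CPM to 61.1 and 70.7 CPM (log2 fold change 8.14, SE 1.13). Rfx6, another endocrine factor, lost its call without E12 replicate 2 (edgeR adjusted p = 0.0785) or E14 replicate 1 (0.0731).

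The enteroendocrine list also held hormone and granule genes. Chgb, a secretory granule protein, rose from 0.0615 and 0.0898 CPM to 353 and 366 CPM (a log2 fold change of 12.12 with SE 1.04 and an edgeR adjusted p = 7.88e-08). Gcg, the glucagon gene, rose from 0.123 and 0.419 CPM to 174 and 190.2 CPM (log2 fold change 9.36, SE 0.94), and E12 forestomach held 272 and 247 CPM. Gast, the gastrin gene, had no count at E12 and was at 9.46 and 11.6 CPM at E14, at least 116-fold higher (edgeR adjusted p = 0.000113). Each of these was under 1 CPM in both libraries labelled E12 hindstomach. Ghrl, the ghrelin gene, had no count at E12 and was at 13.1 and 12 CPM at E14, at least 137-fold higher (edgeR adjusted p = 9.58e-06). Sst, the somatostatin gene, was at 1.14 and 0 CPM at E12 and 0.67 and 0.752 CPM at E14 and did not pass the test. The members that fell were Hdc, which makes histamine, and Nts, the neurotensin gene.

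Pancreatic genes had a like pattern. Of 28 pancreas and bile duct genes tested, 18 rose and 0 fell, beside 10.8% and 6.46% of all genes. Their median log2 fold change was 4.96 as fitted and 4.12 with bounds. At an unadjusted p below 0.05 edgeR found 1 member lower, and DESeq2 called 0 lower. Cpa1, an acinar carboxypeptidase, had no count at E12 and was at 491 and 505 CPM at E14, at least 5480-fold higher (edgeR adjusted p = 8.93e-07). E12 forestomach held 79.9 and 75.9 CPM of Cpa1 and E12 small intestine 231 and 224 CPM. Pdx1, the homeobox factor of pancreas, antrum and duodenum, was at 0.461 and 0 CPM at E12, at 32.6 and 31.4 CPM at E14 and at 27.5 and 24.6 CPM in E12 forestomach (a log2 fold change of 7.10 with SE 0.59 and an edgeR adjusted p = 9e-08 from E12 to E14). Ptf1a, the acinar and early pancreatic factor, was at 0 and 0.0599 CPM at E12 and at 13.2 and 11.9 CPM at E14 (a ratio of 415 with an exact 95% interval of 114 to 3430, edgeR adjusted p = 0.000418). E12 small intestine held 33.6 and 41 CPM of Pdx1, so that E12 forestomach and small intestine were both above the libraries labelled E12 hindstomach in Cpa1 and Pdx1. Sox17, Hhex, Onecut1, Sox9 and Foxa3, which act in the early pancreatic and biliary epithelium, were not called.

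Of 30 squamous and forestomach genes tested, 5 rose and 1 fell, beside 10.8% and 6.46% of all genes, while the forestomach change had 24 higher in the same list. Trp63, the factor of basal squamous cells, was at 6.34 and 2.96 CPM at E12 and 7.55 and 7.93 CPM at E14 and was not called. The 15 tuft cell genes tested had 1 higher and 1 lower. Of 59 cell cycle genes tested, 4 rose and 0 fell, and the risers were Ccnd2, E2f2, E2f8 and Cdkn1a. At an unadjusted p below 0.05 edgeR found 17 members lower, and DESeq2 called 1 lower. Ccnd2, the G1 cyclin D2, rose from 232 and 229 CPM to 691 and 522 CPM, and Cdkn1a, a cell cycle inhibitor, from 36.9 and 30 CPM to 152 and 112 CPM. Mki67, a proliferation marker, was at 95 and 69.3 CPM at E12 and 141 and 112 CPM at E14 and lay under the fold minimum.

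**Figure D3:**
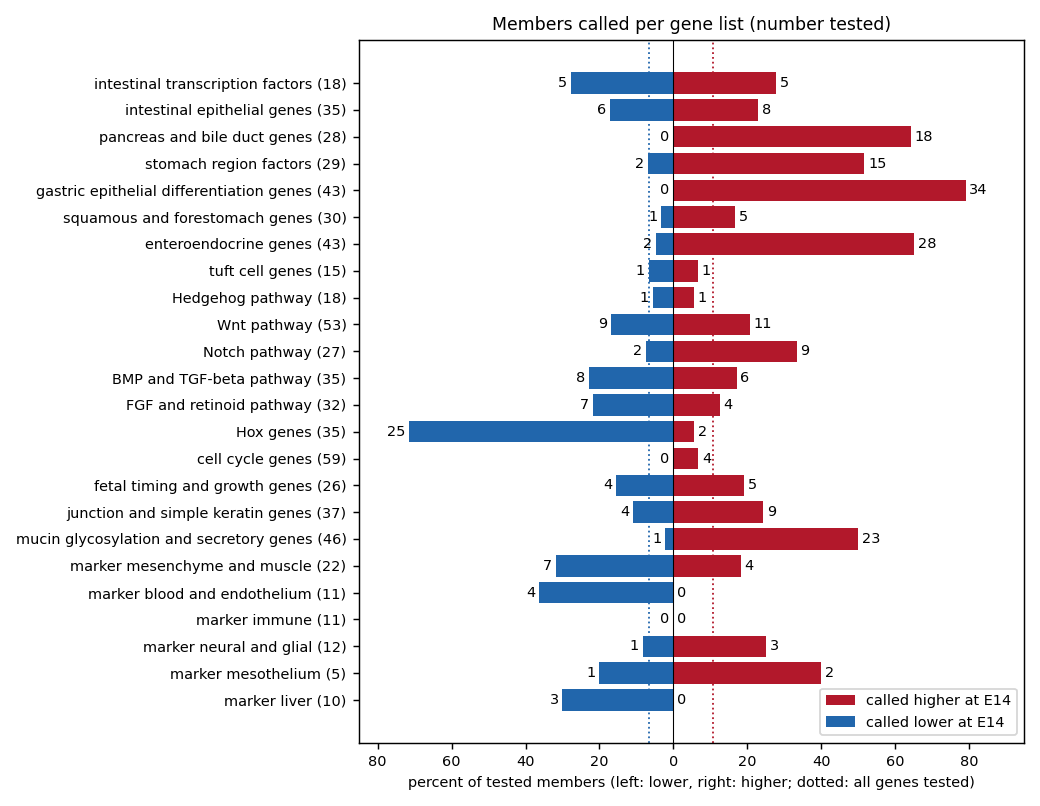
Percent of tested members called higher (right, red) and lower (left, blue) at E14 in each gene list, with the number called at the end of each bar, the number tested in brackets and dotted lines at the shares over all genes (10.8% higher and 6.46% lower). The gastric list (34 of 43 higher), the enteroendocrine list (28 of 43) and the pancreatic list (18 of 28) reach far to the right, and the Hox list (25 of 35 lower) far to the left.

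Of 18 Hedgehog pathway genes tested, 1 rose and 1 fell, beside 10.8% and 6.46% of all genes, and both were ligands. Dhh had no count at E12 and was at 0.741 and 0.301 CPM at E14, at least 5.72-fold higher (edgeR adjusted p = 0.0174), a call lost without E12 replicate 1 (0.0905), E12 replicate 2 (0.0928) or E14 replicate 1 (0.0777). Shh, a ligand of the gut epithelium, fell from 260.1 and 277 CPM to 42.8 and 51.7 CPM (a log2 fold change of -2.51 with SE 0.27 and an edgeR adjusted p = 1.31e-06), and was at 12.7 and 13 CPM at E16. Ihh, the other gut ligand, was at 115 and 156 CPM at E12 and 224 and 254 CPM at E14 and lay under the fold minimum, but was called higher without E12 replicate 2 (log2 fold change 1.06, edgeR adjusted p = 0.00168). The receptor Ptch1 and the effector Gli1 were not called.

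Of 27 Notch genes tested, 9 rose and 2 fell, beside 10.8% and 6.46% of all genes. The ligand Dll1 rose from 1.23 and 0.479 CPM to 23.7 and 27 CPM (log2 fold change 4.89, SE 0.34). The ligand Jag1 rose from 3.85 and 1.92 CPM to 32.3 and 38 CPM (log2 fold change 3.61, SE 0.38). The receptor Notch1 rose from 8.09 and 6.16 CPM to 82.8 and 74.9 CPM (log2 fold change 3.47, SE 0.24). Both E14 libraries were the higher ones in each. The target and feedback gene Nrarp rose from 4.28 and 1.76 CPM to 25.3 and 20.5 CPM (log2 fold change 2.92, SE 0.30), and the target Hes1 was not called. The members that fell were Hey1 and Dtx1.

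Of 53 Wnt genes tested, 11 rose and 9 fell, beside 10.8% and 6.46% of all genes. The ligand Wnt11 fell from 43.4 and 45.9 CPM to 1.06 and 1.47 CPM (log2 fold change -5.14, SE 0.48). The ligand Wnt5a fell from 31.8 and 27.6 CPM to 2.96 and 2.86 CPM (log2 fold change -3.35, SE 0.45), while the ligand Wnt7b rose from 7.26 and 6.88 CPM to 39.5 and 41.7 CPM (log2 fold change 2.52, SE 0.61). The ligands thus went both ways. Lef1, a nuclear effector, fell from 30.1 and 21.8 CPM to 0.423 and 0.376 CPM (log2 fold change -6.0, SE 0.66). Sfrp5, a secreted antagonist known from foregut endoderm, was at 0.0308 and 0.0299 CPM at E12 and at 46.7 and 48.8 CPM at E14 (a ratio of 1570 with an exact 95% interval of 435 to 13000, edgeR adjusted p = 2.28e-10). E12 forestomach held 32 and 36 CPM of Sfrp5 and E12 small intestine 267 and 224 CPM, both above the libraries labelled E12 hindstomach.

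Of 35 BMP and TGF-beta genes tested, 6 rose and 8 fell, beside 10.8% and 6.46% of all genes. Id4, an inhibitor of basic helix-loop-helix factors, rose from 3.63 and 3.56 CPM to 108 and 106 CPM (log2 fold change 4.90, SE 0.35), while Id2 fell from 598 and 900 CPM to 212 and 234 CPM (log2 fold change -1.75, SE 0.15). The ligand Bmp4 fell, but lost its call without E14 replicate 2 (edgeR adjusted p = 0.0737). Of 32 FGF and retinoid genes tested, 4 rose and 7 fell, beside 10.8% and 6.46% of all genes. Aldh1a2, which makes retinoic acid, fell from 23.8 and 34.7 CPM to 1.8 and 1.58 CPM (log2 fold change -4.11, SE 0.40). The retinoid binding genes Crabp2 and Rbp4 fell too, Crabp2 from 62.8 and 63.4 CPM to 11.2 and 11 CPM.

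Of 26 fetal timing and growth genes tested, 5 rose and 4 fell, beside 10.8% and 6.46% of all genes. Sall4, a zinc-finger factor of early embryonic cells, fell from 91.5 and 96.5 CPM to 12.7 and 14 CPM (log2 fold change -2.82, SE 0.62). Lin28a, an RNA-binding regulator of developmental timing, fell from 9.38 and 6.94 CPM to 0.423 and 0.226 CPM (a log2 fold change of -4.63 with SE 1.10 and an edgeR adjusted p = 0.00372), a call lost without E14 replicate 2 (edgeR adjusted p = 0.0607). Peg10, an imprinted gene, rose from 2.89 and 1.62 CPM to 45.2 and 28.4 CPM. Of 37 junction and simple keratin genes tested, 9 rose and 4 fell, beside 10.8% and 6.46% of all genes. Cdh2, Cldn8 and Gjb5 were among the fallers.

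By size of change alone, the 15 leading risers with a mean log2 CPM of at least 2 included Cpa1, Cym, Chgb, Cldn18, Clps, Gata4, Gcg, Insm1, Serpina6, Spp1, Bace2, Sult1d1, Cfi and Vsig1. Serpina6, the corticosteroid-binding globulin, rose from 2.43 and 3.74 CPM to 458 and 476 CPM (log2 fold change 7.24, SE 0.67). Spp1, the matrix protein osteopontin, rose from 3.75 and 2.54 CPM to 382 and 415 CPM (log2 fold change 6.98, SE 0.49). The 15 leading fallers included Osr2, Postn, Clca3, Pth1r, Gata3, Cib2, Kcnk2, Folr1, Olfml3, Oprk1, Fam19a5, Fstl4 and 9130024F11Rik. The call of Fam19a5 was lost without E14 replicate 1 (edgeR adjusted p = 0.058) or E14 replicate 2 (0.0762). Postn, the matrix protein periostin, fell from 1188 and 1551 CPM to 2.89 and 3.5 CPM (a log2 fold change of -8.74 with SE 0.36 and an edgeR adjusted p = 4.3e-11), and E12 small intestine held 32.4 and 21.5 CPM. Clca3, of the chloride channel regulator family, fell from 374 and 549.6 CPM to 2.65 and 2.59 CPM (log2 fold change -7.46, SE 0.37), and was at 0.44 and 0.159 CPM in E12 small intestine. Of all 1113 lower genes, 231 (20.8%) were higher in both libraries labelled E12 hindstomach than in each of the other 16 wild-type libraries, and of the 25 Hox genes that fell, 16 were.

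Markers of other cell types moved with the stages, and their part in the results was not tested. Beside their counts stand the shares over all genes, 10.8% higher and 6.46% lower. The 22 mesenchyme and muscle genes had 4 higher and 7 lower, and summed to 0.187% and 0.217% of counts at E12 and 0.0179% and 0.0194% at E14. Most of the E12 sum was Postn, and the other 21 genes summed to 0.0336% and 0.0228% at E12 and 0.0175% and 0.0189% at E14. The 15 blood and endothelial genes summed to 0.0283% and 0.00202% at E12 and 0.00194% and 0.00207% at E14, and 4 of 11 tested were called lower. Hbb-y, an embryonic globin, was at 146 and 12 CPM at E12 and 11 and 12 CPM at E14, and its log2 fold change was -0.06 without E12 replicate 1. Its edgeR call was also lost without E14 replicate 1 (adjusted p = 0.0588). Pecam1, an endothelial gene, was at 15.4 and 0.539 CPM at E12 and 0.67 and 0.865 CPM at E14, so that the groups overlapped. Its direction turned without E12 replicate 1 (log2 fold change 0.51) and its call was lost without E14 replicate 1 (edgeR adjusted p = 0.154) or E14 replicate 2 (0.112). The 10 liver genes had 3 lower, Afp, Serpina1a and Trf, and summed to 0.0578% and 0.0941% at E12 and 0.017% and 0.0181% at E14. The 11 immune genes tested had 0 called by edgeR or DESeq2 and 0 at an unadjusted edgeR p below 0.05, and the list summed to 0.00144% and 0.000437% at E12 and 0.00129% and 0.0014% at E14. The 12 neural and glial genes had 3 higher and 1 lower, and summed to 0.011% and 0.0116% at E12 and 0.00679% and 0.00681% at E14. The rise of Sox10 among them was lost without E12 replicate 1 (edgeR adjusted p = 0.0505) or E12 replicate 2 (0.0513). The 5 mesothelial genes had 2 higher and 1 lower, and summed to 0.0622% and 0.0781% at E12 and 0.0606% and 0.0605% at E14.

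The germ cell genes Dppa3, Dppa5a and Dazl, which are on none of the lists and were chosen after their values were seen, were also called lower. Dppa5a was at 202 and 19.3 CPM in the libraries labelled E12 hindstomach and at 0.106 and 0.0376 CPM at E14 (a log2 fold change of -10.47 with SE 1.13 and an edgeR adjusted p = 1.82e-06, and a log2 fold change of -7.95 without E12 replicate 1), against 52.2 and 28 CPM in E12 small intestine. Dazl was at 86.7 and 12.9 CPM at E12 and at 0.247 and 0.188 CPM at E14 (a log2 fold change of -7.80 with SE 1.71 and an edgeR adjusted p = 0.00333, and a log2 fold change of -5.85 without E12 replicate 1). Dppa3 was at 105 and 9.66 CPM at E12 and had no count at E14, at least 524-fold lower (edgeR adjusted p = 0.000482). Its fitted log2 fold change was -13.435, and -10.85 without E12 replicate 1. In each of the 3 genes the E12 libraries were far apart, with E12 replicate 1 the higher, and their part in the falls of Sall4 and Lin28a was not tested.

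The Y-linked genes Ddx3y, Eif2s3y, Kdm5d and Uty had no count in any E14 forestomach, hindstomach or small intestine library. In the libraries labelled E12 hindstomach, Eif2s3y was at 51.1 and 41.6 CPM and Ddx3y at 21.7 and 45.5 CPM. Xist, the RNA of the inactive X chromosome, was at 114 and 76.7 CPM at E12 and 134 and 70.5 CPM at E14. Stage and the sex of the embryos cannot be told apart for genes that depend on sex.

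The hindstomach change was set against the forestomach change, which shares no library with it. Between E12 and E14, 1307 genes rose (7.58%) and 885 fell (5.13%) in forestomach. Of the 1858 genes higher in hindstomach, 510 (27.4%) were also higher in forestomach, which is 39% of the forestomach's higher genes, and 169 were lower there. Of the 1113 lower genes, 261 (23.5%) were also lower in forestomach, 29.5% of its lower genes, and 67 were higher there. The test of the difference between the changes called 1646 genes (9.55%), 1005 with a more positive change in hindstomach (5.83%) and 641 with a more negative one (3.72%). Without E14 hindstomach replicate 1 the latter count was 423. Nepn, a small leucine-rich repeat protein of the endoderm, went from 10.8 and 8.08 CPM to 284 and 271 CPM in hindstomach and from 346 and 359 CPM to 0 and 0.181 CPM in forestomach (edgeR adjusted p of the difference = 1.06e-10). Cpne8, a copine, went from 149 and 198 CPM to 5.86 and 6.09 CPM in hindstomach and from 4.93 and 4.63 CPM to 28.5 and 31.4 CPM in forestomach (edgeR adjusted p of the difference = 2.3e-11). By the labels these genes moved in opposite directions in the organs, but stage and the tissue taken cannot be told apart in the hindstomach comparison. The difference was more positive in hindstomach for 27 of 43 enteroendocrine, 20 of 43 gastric and 17 of 28 pancreatic genes. It was more negative for 13 of 30 squamous and 10 of 35 Hox genes. The difference had an SE above 20, and so no usable estimate, for 15 of these Hox genes, Hoxa9, Hoxa10 and Hoxb13 among them, for 4 gastric, 2 enteroendocrine, 1 pancreatic and 2 squamous genes, and for 945 of all genes.

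In small intestine, 1952 genes rose (11.3%) and 843 fell (4.89%) between the stages. Of the 1858 genes higher in hindstomach, 754 (40.6%) were also higher in small intestine, 38.6% of its higher genes. Of the 1113 lower genes, 306 (27.5%) were also lower there, 36.3% of its lower genes. In a fit of the compared libraries alone the test of the difference called 626 genes. With all embryonic libraries in the fit it called 1356 genes (7.87%), 636 with a more positive change in hindstomach (3.69%) and 720 with a more negative one (4.18%). This count moved with single libraries, to 3548 without E12 small intestine replicate 2, to 858 without E14 small intestine replicate 1, and to 859 or 867 without E14 hindstomach replicate 1 or 2. The difference was more positive in hindstomach for 22 of 43 enteroendocrine, 15 of 29 stomach region and 11 of 28 pancreatic genes. It was more negative for 13 of 35 Hox genes, 10 of 35 intestinal epithelial genes and 7 of 18 intestinal factors. No usable estimate was had for 7 of the Hox, 2 of the intestinal epithelial, 4 of the enteroendocrine and 4 of the pancreatic genes, and for 968 of all genes. Fabp1 went from 15.8 and 18.5 CPM to 53.5 and 43.7 CPM in small intestine, against its fall in hindstomach (edgeR adjusted p of the difference = 5.28e-06).

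The hindstomach change was also described over gene sets drawn from the forestomach and small intestine libraries alone. At E14, 1256 genes were higher in small intestine than in forestomach (7.29%) and 803 were lower (4.66%). Of the intestine-high genes, 302 (24%) rose and 252 (20.1%) fell in the hindstomach comparison, with a median log2 fold change of 0.05. Of the forestomach-high genes, 219 (27.3%) rose and 66 (8.22%) fell, with a median of 0.46. With sets drawn at E12, 126 (15.5%) of 814 intestine-high genes rose and 249 (30.6%) fell (median -0.56), and 314 (33.9%) of 926 forestomach-high genes rose and 43 (4.64%) fell (median 0.80). The balance of the intestine-high genes thus depended on the stage at which the set was drawn. These sets held 4.72% and 5.37% of the genes tested, 10.1% together.

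**Figure D4:**
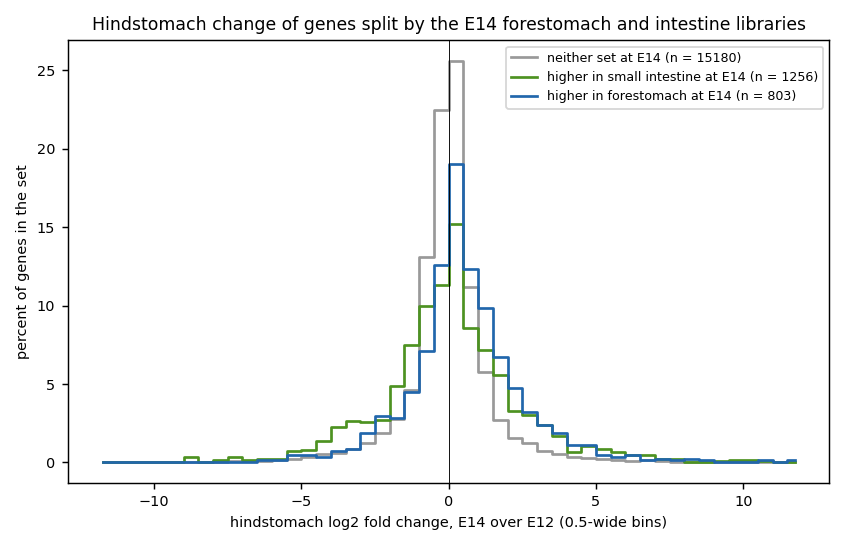
Hindstomach log2 fold change from E12 to E14 (horizontal axis, bins of width 0.5, genes at 0 in one group set to their bound, values past the axis counted in its end bins) against the percent of genes in each set, for genes higher in small intestine (green, n = 1256), higher in forestomach (blue, n = 803) or in neither set (grey) at E14. The forestomach-high curve lies further right, with a median of 0.36 against 0.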

How the data were processed

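RNA libraries of sorted embryonic gut epithelium were read as gene counts, which the authors deposited as whole-number counts per gene in 1 table, not normalized. Per the labels' protocols, total RNA was amplified with the SMARTer-Seq v4 kit and sequenced as 75 bp single-end reads, and the submitters' processing notes name STAR 2.5.3a, HTSeq and the mm9 build. Whether counting used strand is not given in the sources used here. Samples were grouped by their titles. The table held 24015 genes, and 2 rows without a gene name, 2 columns that match no sample and the 4 adult columns were not used.

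All 27 embryonic libraries in 13 groups entered 1 fit (R 4.3.3, edgeR 4.0.16), with scaling by TMM factors, filterByExpr at a minimum count of 10 and glmQLFTest, and p-values were adjusted over 17239 genes. Among them were wild-type E18 small intestine and Cdx2-/- small intestine with Cdx2 deleted at E10, E13 or E15. All groups shared 1 estimate of the spread. CPM use the TMM-adjusted library size, and 3 counts were worth 0.0898 to 0.113 CPM in the 4 hindstomach libraries. The SE is the log2 fold change divided by the root of the F statistic. The difference between the changes of 2 organs was tested as a contrast in the same fit. The code was tested on simulated counts. Replicate pairs differed beyond sampling noise (chi-square per degree of freedom 28.4 at E12 and 10.8 at E14), so neither was treated as a second deposit of the other, which does not show that they came from separate embryos.

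Named genes are Cdx2, called list members, per direction the 15 called genes that changed most at a mean log2 CPM of at least 2 without overlap between groups, per direction the 5 genes under the same limits with the largest tested difference from each other organ, and genes that show a list's range. Members and lists were chosen with earlier results of these data known. Alternatives were RLE scaling, DESeq2 1.42.0, no filter, fewer libraries in the fit, no fold minimum, a replicate block, thinning the counts to the total of the shallowest library compared, organ sets drawn at E12, and leaving out each library. A few genes that these rules name and 1 of the 4 promoter motifs searched are not reported here, so the motif shares given are not the whole search. The chromatin samples were not analysed here. No genome of the mm9 build was used, so promoter windows come from RefSeq by gene symbol.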

Additional observations from a re-analysis of the deposited data

Results flagged for a closer look

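The change from E12 to E14 differed between hindstomach and forestomach for 1646 genes by edgeR's test of the difference itself, with an adjusted p below 0.05 and the fold minimum. Genes are named here where they were also called in hindstomach, without overlap between its stages and at a mean log2 CPM of at least 2 over its 4 libraries, and genes under that level can differ by more. Within these limits the leading genes with a more positive change in hindstomach were Cpa1 (edgeR adjusted p of the difference = 5.1e-06), Nepn (1.06e-10), Spock1 (1.14e-08), Galnt6 (1.99e-08) and Gcg (8.69e-08). Spock1, a secreted proteoglycan, was at 2.18 and 1.32 CPM at E12 and 67.1 and 64 CPM at E14 in hindstomach, and at 32.2 and 27.6 CPM and then 0 and 0.108 CPM in forestomach. Those with a more negative change in hindstomach included Osr2 (1.05e-05), Gata3 (7.81e-07), Robo2 (2.75e-06) and Cpne8 (2.3e-11). Robo2, an axon guidance receptor, was at 68.5 and 75.8 CPM and then 2.54 and 2.18 CPM in hindstomach, and at 1.13 and 1.22 CPM and then 9.2 and 9.36 CPM in forestomach.

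The change differed between hindstomach and small intestine for 1356 genes by the same test, and for 626 in a fit of the 8 compared libraries alone. Within the same limits the leading genes with a more positive change in hindstomach were Cpa1 (edgeR adjusted p of the difference = 5.98e-06), Chgb (2.15e-06), Cym (7.65e-10), Clps (9.95e-08) and Gcg (5.28e-06). Clps, the pancreatic lipase cofactor colipase, was at 0.154 and 0.12 CPM and then 144 and 145 CPM in hindstomach, and at 47.5 and 26.7 CPM and then 42 and 34.7 CPM in small intestine. Those with a more negative change were Clca3 (4.18e-09), Osr2 (3.98e-05), Postn (4.05e-09), Edn1 (0.000209) and Unc13d (0.00228). Unc13d itself was called higher in hindstomach, at 1.38 and 2.99 CPM and then 9.81 and 9.81 CPM. In small intestine Unc13d was at 0 and 0 CPM and then 2.29 and 2.72 CPM. Edn1, the peptide endothelin, was at 26.3 and 22.1 CPM and then 1.52 and 1.92 CPM in hindstomach, and at 0 and 5.32 CPM and then 22.6 and 21 CPM in small intestine. In a fit of the 8 compared libraries alone the difference of Edn1 was not called (edgeR adjusted p = 0.134). Every one of these differences rests on the libraries labelled E12 hindstomach, so stage and the tissue taken cannot be told apart.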

How the results depend on the processing

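The 2971 calls between the stages became 2958 with RLE scaling, 3121 with DESeq2, 2921 without the filter and 2963 with counts thinned to the shallowest library compared. They were 3417 with only the compared libraries in the fit, and 2740 with only wild-type stomach and small intestine at E12, E14 and E16. Without a fold minimum they were 5380, 2851 higher and 2529 lower. Leaving out 1 library gave 2184 to 2470 calls, 1517 to 1617 higher and 667 to 952 lower, and 1632 genes (54.9%) were called in every such fit. The difference from forestomach had 1192 to 1415 calls, 712 to 887 positive and 423 to 543 negative. The difference from small intestine had 858 to 3548 calls, 405 to 1065 positive and 407 to 2483 negative, and with only the compared libraries 626, 307 positive and 319 negative. With organ sets drawn at E12, 126 intestine-high genes rose and 43 forestomach-high genes fell. Of 1540 gene values under other settings 1521 kept their side of the threshold, 7 lost and 12 gained a call, and 0 reversed. With 1 library left out 823 of 852 did, and Pecam1 reversed without E12 hindstomach replicate 1 (log2 fold changes of -4.31 to 0.505 over the 4 fits). The causes were not tested.

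Same-numbered libraries share only a number: across genes their deviations had r = -0.004 between E12 and E14 hindstomach, -0.012 in forestomach and 0 in small intestine, and -0.038 to 0.097 between hindstomach and the other organs within a stage. With the replicate number as a block, calls were 3024, 1900 higher and 1124 lower, for the difference from forestomach 1702, 1038 positive and 664 negative, and for that from small intestine 1419, 653 positive and 766 negative. Depth limits genes near 0.1 CPM, which 3 counts are worth: bounds are given only for genes with no count in a group, and fitted fold changes from a few counts, as for Chgb, Cym, Cldn18 and Clps at E12, rest on those counts.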
